A study of Mus musculus with 24 samples.

Results

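The comparison of HH with HL mice addresses how the pup's own vitamin D3 diet after weaning related to gene expression in the proximal colon when every mother had eaten the high diet. It used 12 of the 24 arrays of the series, chosen by the diets in the sample titles, with 6 mice on each side. All 12 were male 129/SvEvIL-10 KO mice of 3 months. They lack interleukin-10, an anti-inflammatory cytokine, and mice of this kind develop bowel inflammation outside sterile housing. No wild-type array was analysed here. The mothers of both groups received 5000 IU vitamin D3 per kg diet during pregnancy and lactation. From weaning on, HH pups ate 5000 and HL pups 25 IU vitamin D3 per kg diet. Each array held RNA of the colon of 1 mouse, named here by its group and the label of its mother. The HH mothers were 9, 10, 5, 11A, 5A and 10B, and the HL mothers were 14A, 8C, 8, 2A, 10 and 10B. Mothers 10 and 10B therefore each gave 1 pup to either group. The 12 LH and LL mice, from mothers on 25 IU per kg and with pup diets of 5000 and 25 in the same order, entered the estimate of the spread and 1 comparison at the end.

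Vitamin D3 from food is hydroxylated in the liver and then in the kidney to calcitriol, the hormone that binds the vitamin D receptor. The receptor pairs with a retinoid X receptor on DNA, and in the intestine it is best known for raising calcium absorption and the enzyme that breaks calcitriol down. It is present in gut epithelium and in many immune cells, and has been studied there for its part in antimicrobial defence, tight junctions and inflammatory signals.

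Levels are the deposited log2 intensities after quantile normalization, on a scale where undetected probes had a median of 7.09. A probe was called detected on an array where its detection score was above 0.99. The share of probes detected was 34.2% ± 2.9 (SD, n = 6) in HH and 31.4% ± 5.5 (SD, n = 6) in HL mice. This difference was within the spread between mice, with p = 0.303 in an exact two-sided permutation test over all 924 assignments of the 12 mice. The mouse HL 2A stood apart with 21.2%, and the HL mean without it was 33.4%. Mean raw intensity was 494 ± 103 (SD, n = 6) in HH and 409 ± 84 (SD, n = 6) in HL mice. The same permutation test gave p = 0.154 for it. Of the 31 colonocyte markers tested, 27 were detected on at least 6 of the 12 arrays. Each HH and HL pair of the same mother resembled one another. The correlation of the mice's deviations was 0.635 for mother 10B and 0.363 for mother 10. Deviations were taken from each probe's median over all arrays of the series, LH and LL mice included. The other 34 pairs of an HH with an HL mouse lay between -0.389 and 0.315. Pairs within a group reached 0.345 in HH, for HH 11A with HH 5A, and 0.197 in HL mice. The value of mother 10 was thus close to that of an HH pair of different mothers.

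There were no significant differences between HH and HL mice at any probe. With limma, 0 of 34415 expressed probes passed an adjusted p of 0.05, or 0%, and the smallest adjusted p was 0.985. Without adjustment, 1180 probes (3.43%) had p under 0.05, of which 610 (1.77%) were higher and 570 (1.66%) lower in HH. With a fixed block for the mother, which rests on the pairs from mothers 10 and 10B and leaves 1 residual degree of freedom, 0 probes passed the adjustment and 1905 had an unadjusted p under 0.05. By the brightest probe of each gene, 16089 genes were tested and 570 of them (3.54%) had an unadjusted p under 0.05, with 291 (1.81%) higher and 279 (1.73%) lower. Of the 9101 genes detected on at least 6 of the 12 arrays, 0 differed by more than 1 on the log2 scale, and 51.1% had the higher mean in HH. For these genes, the 95% confidence interval reached 0.273 to either side of the difference in the median. The genes described next that were tested had adjusted p-values of 0.985 to 0.998 in limma's test of HH against HL. Their values therefore describe these mice and are no call of a change.

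**Figure D1:**
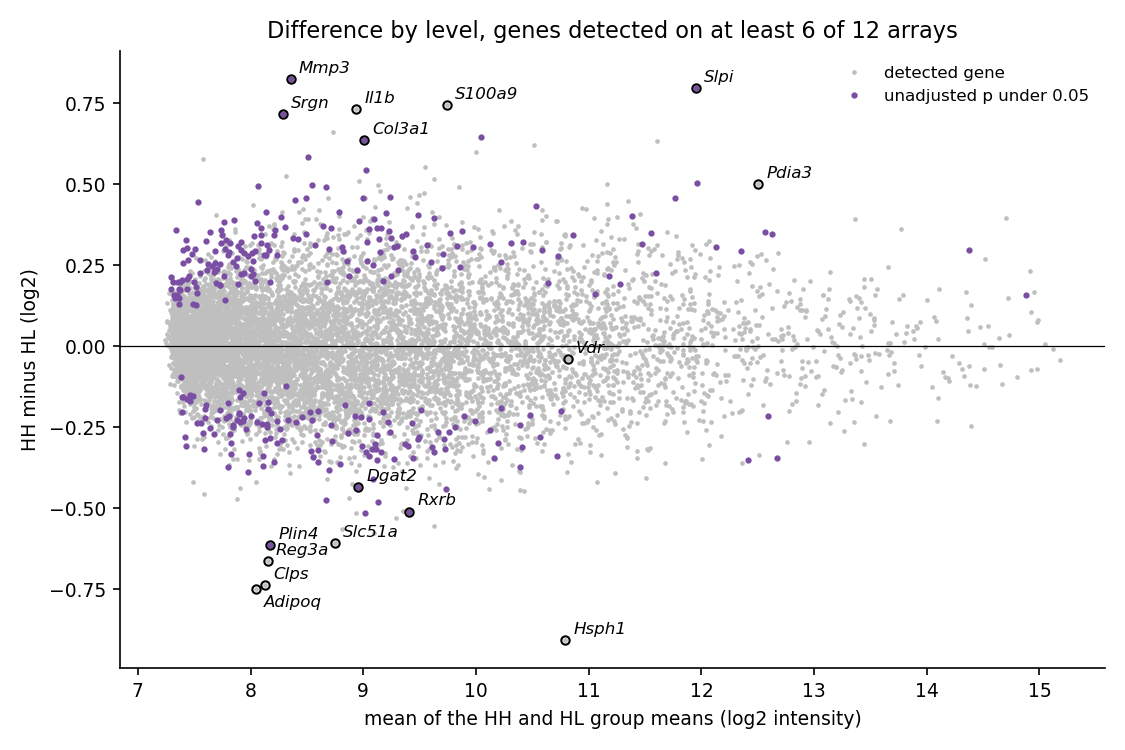
Difference of HH minus HL (log2, vertical axis) against the mean of both group means (log2 intensity, horizontal axis) for the 9101 genes detected on at least 6 of 12 arrays, with genes at an unadjusted p under 0.05 in purple and named genes circled. The points spread on both sides of 0 at all levels, and no gene reaches 1 in either direction.

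Among the detected genes with the smallest p-values and the higher mean in HH was Mmp3, which encodes stromelysin, a matrix-degrading protease made by stromal cells in inflamed gut. Its log2 intensity ranged from 7.72 over a median of 8.76 to 9.90 in HH and from 7.30 over 7.98 to 8.62 in HL mice. The groups overlapped, since the mouse HH 10B was lower than 4 of the 6 HL mice and HH 5A was lower than HL 8, and the mouse HH 11A was the highest of all 12. The difference was 0.82 (standard error 0.279, limma, unadjusted p = 0.00717), and 2 dimmer detected probes of the gene differed by 0.47 and 0.24.
Trim59, a ubiquitin ligase gene, lay at 8.14, 8.49 and 8.69 (lowest, median and highest) in HH and at 7.80, 8.02 and 8.42 in HL mice, a difference of 0.40. Malt1, which encodes a paracaspase of lymphocyte NF-kappaB signalling, lay at 7.70, 7.92 and 8.29 in HH and at 7.18, 7.66 and 7.75 in HL mice, a difference of 0.38. The ranges overlapped for both genes, and all 6 HH mice were above the HL mean.
Ptprc, the pan-leukocyte gene that encodes CD45, lay at 7.43, 7.64 and 7.76 in HH and at 7.08, 7.42 and 7.51 in HL mice. This is a difference of 0.28 (standard error 0.0974, limma, unadjusted p = 0.00809) close to the level of undetected probes, and the probe was detected in 6 HH and 4 HL mice. The other genes of this group were Cirbp, a cold-induced RNA-binding protein gene, with a difference of 0.35, the mesenchymal growth factor gene Fgf10 with 0.39, the centrin gene Cetn2 with 0.25 and Cox20, a cytochrome c oxidase assembly factor gene, with 0.43. All 6 HH mice were above the HL mean for each of these 4.

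Of the genes with the smallest p-values and the lower mean in HH, Dgat2 encodes the enzyme of the last step of triglyceride synthesis. It lay at 8.64, 8.68 and 8.90 in HH and at 8.84, 9.21 and 9.41 in HL mice. The highest HH mice, HH 11A and HH 5, overlapped with the mouse HL 8 alone, and the HH pup was lower than the HL pup by 0.40 for mother 10 and by 0.58 for mother 10B. The difference between the groups was -0.43 (standard error 0.117, limma, unadjusted p = 0.00115). Ntn5, a gene of the netrin family, lay at 8.34, 8.87 and 8.96 in HH and at 8.83, 9.27 and 9.87 in HL mice, a difference of -0.52, and all 6 HH mice were below the HL mean. Dusp8, which encodes a phosphatase of MAP kinases, had the smallest p of the 16 genes (0.00106) with a difference of only -0.22, at 7.70 ± 0.13 in HH and 7.92 ± 0.09 in HL mice (SD).
The remaining genes were Klc4, a kinesin light chain gene, with a difference of -0.32, Tns4, which encodes a tensin of cell adhesions, with -0.35, the mitochondrial import gene Chchd4 with -0.29, Tbc1d2, which encodes a Rab GTPase-activating protein, with -0.25 and the F-box gene Fbxw8 with -0.23. For each of these 5, all 6 HH mice were below the HL mean, but under median scaling without quantile normalization the differences turned to 0.055 for Klc4, 0.018 for Chchd4 and 0.127 for Tbc1d2.

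In 28 of the 16089 genes the HH and HL values did not overlap at all, 18 (0.112%) with HH above and 10 (0.0622%) with HH below, and 15 of the 28 were detected on at least 6 arrays. None of the genes above was among them. The 3 of these 15 with the smallest p-values, named after their values were seen, were Cdc25a, Aspm and Gosr2. Cdc25a, a phosphatase gene of cell-cycle entry, was at 7.73 to 8.06 in HH and 8.12 to 8.52 in HL mice. Aspm, a mitotic spindle gene, was at 7.79 to 7.90 in HH and 7.15 to 7.79 in HL mice, so that the highest HL and the lowest HH mouse nearly met. Gosr2, which encodes a Golgi SNARE, was at 9.65 to 9.92 in HH and 9.24 to 9.57 in HL mice, but its 3 other detected probes differed by -0.03 to 0.05.

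**Figure D2:**
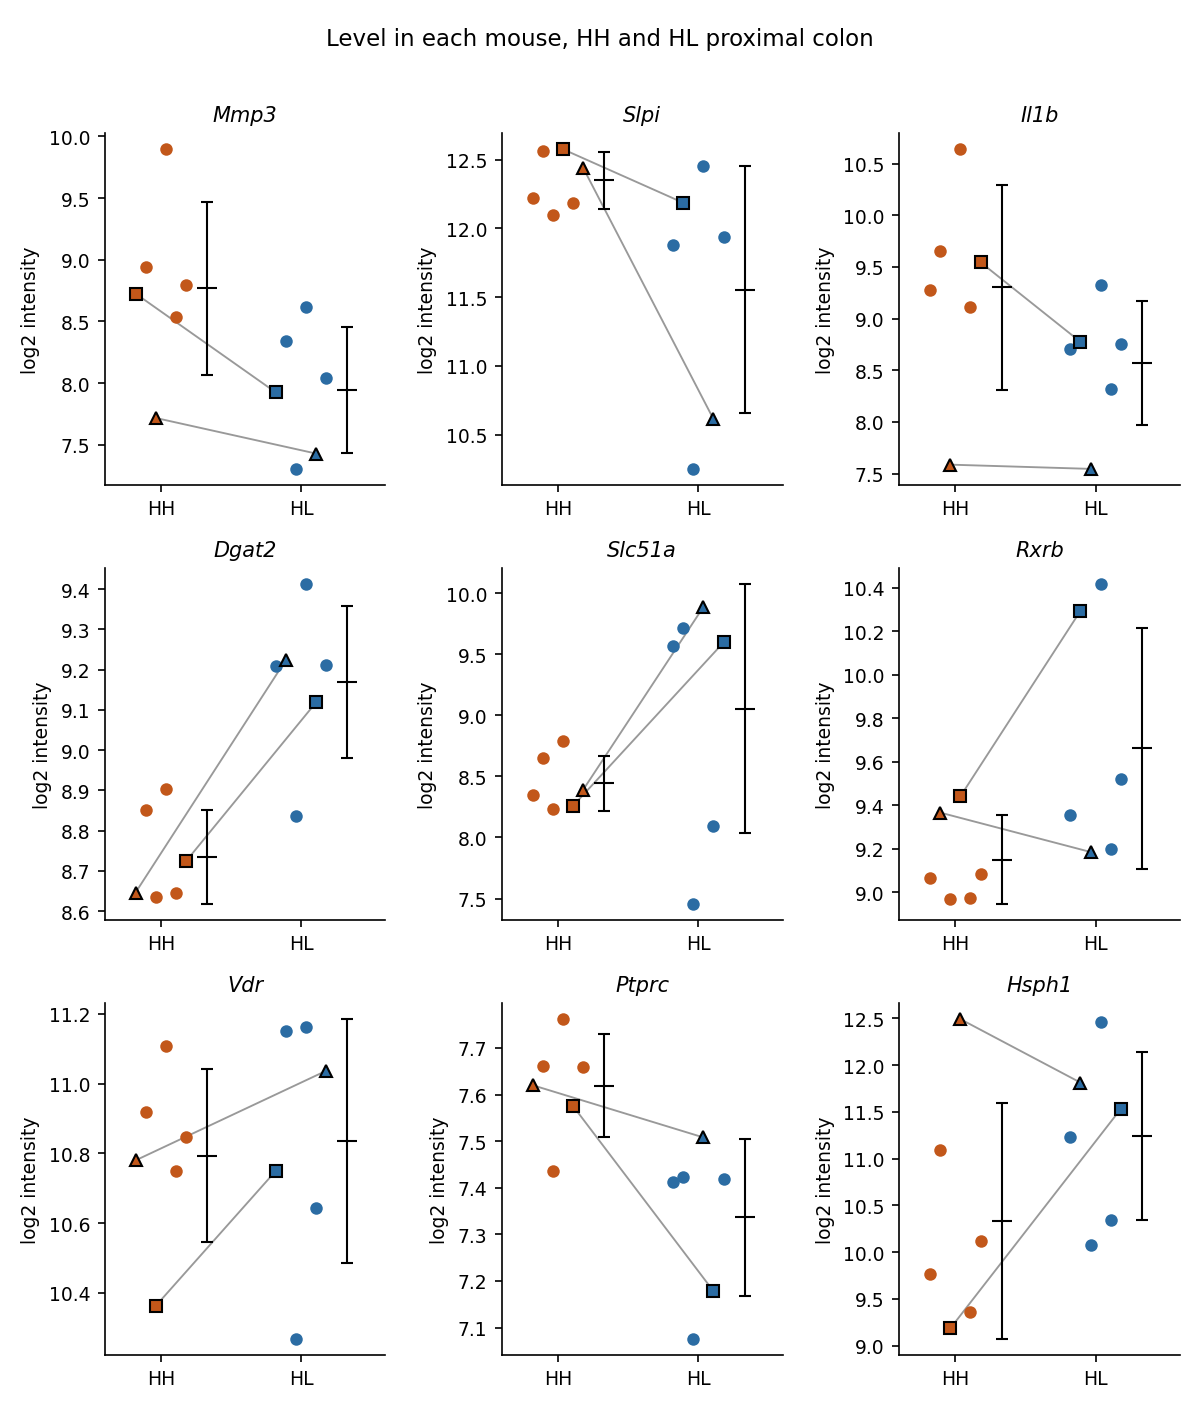
Level (log2 intensity) of 9 named genes in each of the 6 HH (orange) and 6 HL (blue) mice, with the group mean and SD beside the points. Squares and triangles are the pups of mothers 10 and 10B, joined by a line, and the vertical axes do not start at 0. Dgat2 and Slc51a are lower in the HH pup of both mothers, while the pups of mother 10B are close together and low for Il1b.

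The receptor itself did not stand out. Vdr lay at 10.36, 10.81 and 11.11 in HH and at 10.27, 10.89 and 11.16 in HL mice, so that both groups covered nearly the same range. The difference was -0.04 (95% confidence interval -0.48 to 0.40, limma, unadjusted p = 0.848), and 2 other detected probes of the gene differed by 0.05 and 0.00. Under median scaling without quantile normalization the Vdr difference was 0.33. Of the retinoid X receptors, its partners on DNA, Rxrb lay at 8.97, 9.08 and 9.44 in HH and at 9.19, 9.44 and 10.42 in HL mice. The HL mean was carried by the mice HL 2A and HL 10, at 10.42 and 10.29, and the groups overlapped otherwise. The difference was -0.51 (standard error 0.223, limma, unadjusted p = 0.0315), against -0.12 for a dimmer detected probe of the same gene. Rxra was detected on 0 of the 12 arrays and Rxrg was below the filter for expressed probes.
The coactivator gene Med1, a subunit of the Mediator complex, lay at 8.48, 8.65 and 8.93 in HH and at 7.55, 8.60 and 8.72 in HL mice, a difference of 0.30. A dimmer detected probe of Med1 differed by 0.04. Pdia3, a protein disulfide isomerase gene whose product has also been described as a membrane binding protein for calcitriol, was at 12.75 ± 0.17 in HH and 12.25 ± 0.70 in HL mice (SD), a difference of 0.50 (limma, unadjusted p = 0.113). For both genes the highest HL mouse was above the HH median, and the HL spread was the wider one. HL 2A and HL 10 were the lowest of the 12 for both. They were at 7.55 and 7.92 for Med1 and at 11.21 and 11.63 for Pdia3. The remaining HL mice were at 8.51 to 8.72 and at 12.37 to 13.07, in the same gene order. The share of probes detected was also lowest in HL 2A (21.2%) and HL 10 (29.4%), with HH 10B at 29.5%. Its part in these differences was not tested.

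Among the enzymes, Cyp27a1, a mitochondrial sterol hydroxylase that can act on vitamin D, was at 8.46 ± 0.30 in HH and 8.5 ± 0.43 in HL mice (SD). Dhcr7, whose product uses up the skin precursor of vitamin D in cholesterol synthesis, was at 8.23 ± 0.42 and 8.20 ± 0.22 (SD) in the same order. Cyp24a1, the enzyme that breaks calcitriol down and a main target of the receptor, was detected on 0 of the 12 arrays, at 6.91 to 7.18 in HH and 7.05 to 7.13 in HL mice. These are levels of undetected probes, so no difference could be measured for this gene. The same holds for Cyp3a11, a drug-metabolizing cytochrome, for Lrp2, the megalin gene, and for S100g, which encodes calbindin-D9k, each detected on 0 arrays. Cyp2r1, Cyp27b1 and Cubn did not pass the filter.
The apical calcium channel gene Trpv6 was detected on 3 HH and 2 HL arrays, at 7.34 ± 0.20 in HH and 7.36 ± 0.38 in HL mice (SD).
Of the 10 genes tested in the list of the receptor and vitamin D metabolism, 4 had the higher and 6 the lower mean in HH, and the median difference was -0.036, against -0.004 over all genes tested. Under median scaling without quantile normalization the median of the list was 0.118 and that of all genes 0.075, so its direction depended on the scaling. Targets of vitamin D in the intestine were evenly split, with 15 of 28 genes higher and 13 lower, a median of 0.003, and 0 genes at an unadjusted p under 0.05. Cldn2, a pore-forming claudin gene, was at 10.56 ± 0.34 in HH and 10.26 ± 0.47 in HL mice (SD), and Atg16l1, an autophagy gene, at 8.77 ± 0.14 and 9.14 ± 0.55. HL 2A was the lowest of the 12 for Cldn2, at 9.40, with the other HL mice at 10.19 to 10.78. For Atg16l1, HL 2A at 10.14 and HL 10 at 9.40 were the highest, and the remaining HL mice were at 8.75 to 8.90. Cldn15, another pore-forming claudin gene, differed by -0.19 and the cadherin gene Cdh17 by 0.28. In the list of calcium and phosphate transport, 10 of 16 genes were higher, with a median of 0.024, which was 0.165 under median scaling.

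Genes of inflammation and myeloid cells had mostly higher means in HH. In the list of macrophage and neutrophil markers, 28 of 31 genes tested were higher in HH, with a median of 0.162. In the list of colitis inflammation it was 39 of 51, with a median of 0.132, and of the 4 members at an unadjusted p under 0.05 all were higher, against 1.81% of all genes. No member passed the adjustment. In bulk tissue such as this, more cells of a type and more RNA per cell cannot be told apart.
The pups of mother 10B had the lowest means of both lists in their groups. The mean of the detected macrophage and neutrophil markers was 8.62 in HH 10B against a median of 9.50 in HH, and 8.34 in HL 10B against a median of 9.24 in HL mice. Without HL 10B alone, the medians of the lists were 0.042 for macrophage and neutrophil markers (22 of 31 higher) and 0.009 for colitis inflammation (28 of 51 higher). The highest medians on leaving out 1 mouse were 0.276 for macrophage and neutrophil markers, without HL 10, and 0.207 for colitis inflammation, without HH 10B (45 of 51 higher). Without both mice of mother 10B, a setting chosen after seeing the data, they were 0.186 (28 of 31) and 0.137 (36 of 51). With the fixed block for the mother they were 0.008 and 0.051. Under median scaling they were 0.417 and 0.296, above the 0.075 of all genes. This was not particular to these lists, since only 6 of the 31 lists were below all genes under that scaling. After background correction by neqc the medians were 0.286 and 0.218.

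Il1b, the cytokine interleukin-1 beta, lay at 7.59, 9.41 and 10.64 in HH and at 7.55, 8.73 and 9.33 in HL mice. The mice of mother 10B were the lowest of both groups and within 0.04 of one another, and 3 HH mice were above every HL mouse. The difference was 0.73 (standard error 0.375, limma, unadjusted p = 0.0638). Il1a, which encodes the related interleukin-1 alpha, lay at 7.19, 7.46 and 8.17 in HH and at 6.98, 7.14 and 7.42 in HL mice, a difference of 0.36 near the detection limit. The chemokine genes Ccl7, Cxcl2 and Ccl20 differed by 0.34, 0.58 and 0.17, with 5 of 6 HH mice above the HL mean for each. A second detected probe differed by 0.17 for Ccl7 and by 0.09 for Cxcl2. Il1b, Cxcl2 and Ccl20 belong to the list of TNF-alpha and NF-kappaB targets, where 20 of 29 genes were higher, with a median of 0.045. In that list 0 members had an unadjusted p under 0.05, against 3.54% of all genes. Its member Csf1 went the other way, by -0.17. For Csf1, 5 of 6 HH mice were below the HL mean, and the HH pup was lower for both mother 10 and mother 10B.
S100a9, a subunit of the neutrophil protein calprotectin, had the widest spread of the myeloid genes named here. It lay at 7.51, 10.28 and 11.87 in HH and at 7.10, 9.57 and 10.70 in HL mice, and its difference of 0.74 had a standard error of 0.659. Srgn, the granule proteoglycan serglycin, lay at 7.34, 8.96 and 9.17 in HH and at 7.20, 7.99 and 8.47 in HL mice, a difference of 0.72 (limma, unadjusted p = 0.0364). Cd14, the coreceptor for bacterial lipopolysaccharide on macrophages, lay at 10.58, 11.10 and 11.21 in HH and at 10.23, 10.71 and 10.99 in HL mice. Apart from HH 10B, every HH mouse had more Cd14 signal than every HL mouse, and the difference was 0.34 (standard error 0.132, limma, unadjusted p = 0.0162). Other macrophage and neutrophil genes were the protease gene Ctss with a difference of 0.60, Mpeg1, which encodes perforin-2 of macrophages, with 0.50, and the granulocyte receptor gene Csf3r with 0.25.

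The lymphocyte lists had smaller medians. In the T cell list 14 of 21 genes were higher in HH, with a median of 0.065, and in the list of B and plasma cells 13 of 18, with a median of 0.039. With the fixed block the medians turned to -0.060 and -0.186, and within the pairs the mean of the B and plasma cell list was lower in the HH pup of both mothers, with differences of -0.454 and -0.144. Cd3g, a subunit of the T cell receptor complex, was at 8.92 ± 0.46 in HH and 8.43 ± 0.37 in HL mice (SD), and Cd3e, another subunit, at 8.87 ± 0.43 and 8.59 ± 0.57. The mouse HL 10 had the highest Cd3e level of the 12, at 9.64. Foxp3, the transcription factor of regulatory T cells, differed by -0.16, and the B cell chemokine gene Cxcl13 by 0.32. With the fixed block Cd3g, Cd3e and Cxcl13 differed by -0.24, -0.35 and -0.21, and under median scaling Foxp3 by 0.17. The interferon-gamma and MHC class II list was balanced, with 16 of 30 genes higher and a median of 0.006, and so was the type I interferon list, with 11 of 20 and 0.012. Under median scaling their medians were 0.294 and 0.199, and with the fixed block -0.144 and -0.004. The class II gene H2-Aa was at 13.61 ± 0.25 in HH and 13.40 ± 0.20 in HL mice (SD).
In the list of Il10, its receptor and STAT3 feedback, 10 of 14 genes had the lower mean in HH, with a median of -0.043 that was 0.102 under median scaling. The receptor subunit gene Il10rb, at 9.45 ± 0.19 in HH and 9.14 ± 0.24 in HL mice, and the kinase gene Jak1, at 8.27 ± 0.21 and 7.91 ± 0.20 (SD), went the other way, with differences of 0.31 and 0.36. A second detected probe of each differed by -0.10 for Il10rb and by 0.00 for Jak1. The transcription factor gene Stat3 differed by -0.17 and Bcl3, an inhibitor-like NF-kappaB gene, by -0.25.

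**Figure D3:**
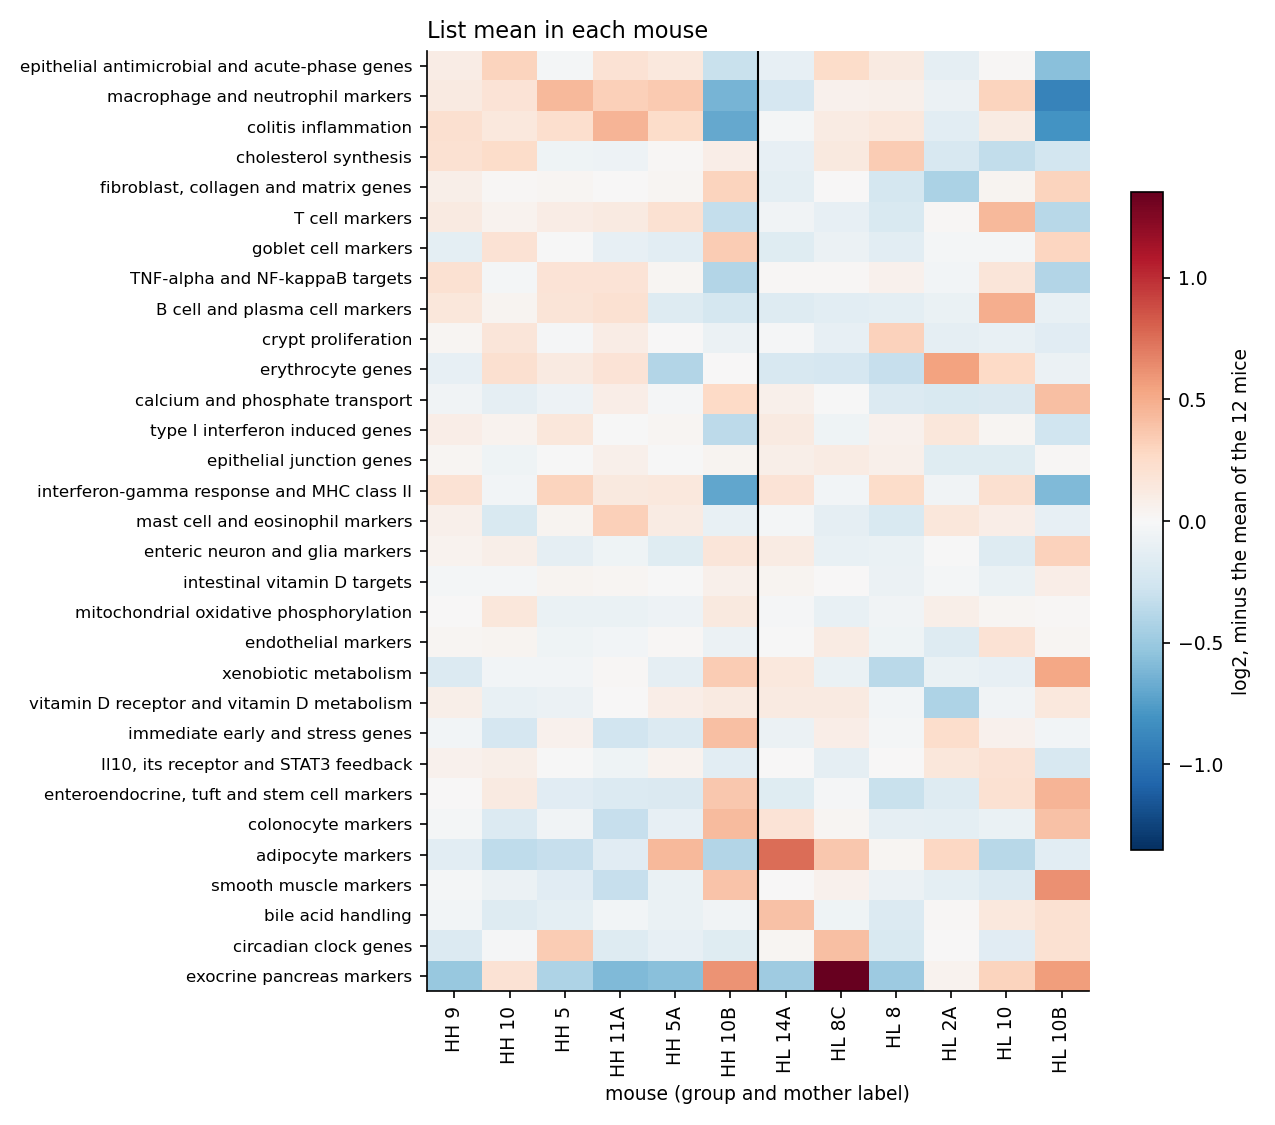
Mean log2 level of the detected members of each of 31 gene lists (rows) in each HH and HL mouse (columns, group and mother label), minus the mean of the 12 mice, with red above and blue below it. The pups of mother 10B are the lowest in both groups for macrophage, colitis and interferon-gamma genes, and HL 8C alone is dark red for exocrine pancreas markers.

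In the epithelium, Slpi had one of the largest differences. It encodes secretory leukocyte protease inhibitor, an antimicrobial protein that blocks neutrophil elastase. It lay at 12.10, 12.33 and 12.58 in HH and at 10.25, 11.91 and 12.45 in HL mice. The HH mice lay close together, while HL 14A at 10.25 and HL 10B at 10.61 lay far below the other 4 HL mice, of which HL 8C and HL 10 were within the HH range. The difference was 0.80 (standard error 0.325, limma, unadjusted p = 0.0225). In the list of antimicrobial and acute-phase genes 19 of 28 were higher in HH, with a median of 0.193 that was 0.032 without HL 10B. Lyz1, an epithelial lysozyme gene that shares sequence with Lyz2, differed by 0.40, and Saa2, an acute-phase gene, by -0.21.

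Genes of bile acid handling had mostly lower means in HH after quantile normalization, but not under median scaling. Slc51a and Slc51b together encode the transporter that exports bile acids from enterocytes to blood. Slc51a lay at 8.23, 8.37 and 8.79 in HH and at 7.46, 9.58 and 9.89 in HL mice. Here 4 HL mice were above every HH mouse, but HL 8 and HL 8C were below every one of them. The HH pup was lower by 1.34 for mother 10 and by 1.5 for mother 10B, and the difference between the groups was -0.61 (standard error 0.347, limma, unadjusted p = 0.0929). Slc51b lay at 9.95, 10.15 and 10.58 in HH and at 10.21, 10.52 and 11.05 in HL mice, a difference of -0.37 (limma, unadjusted p = 0.0312). The sulfotransferase gene Sult2b1 differed by -0.32 and Abcc4, a basolateral exporter gene, by 0.20. Of the 14 list members tested 11 were lower, with a median of -0.096, which was 0.076 under median scaling where all genes had a median of 0.075.
Colonocyte markers were lower in HH for 21 of 31 genes, with a median of -0.051, but 0.214 under median scaling. Slc9a3, the apical sodium-proton exchanger, was at 10.62 ± 0.85 in HH and 11.00 ± 0.58 in HL mice (SD). Goblet cell markers were split, 10 of 18 higher with a median of 0.065. Spink4, a protease inhibitor gene of goblet cells, was at 13.56 ± 0.38 in HH and 13.17 ± 0.47 in HL mice, and the secretin gene Sct at 10.17 ± 0.37 and 10.61 ± 0.73 (SD). Of the tight junction genes, Cldn23 differed by -0.21 and Cldn7 by -0.22, and 13 of 21 members of the junction list were higher, with a median of 0.011 and of 0.350 under median scaling. Under that scaling Cldn23 and Cldn7 differed by 0.16 and 0.15. In the list of xenobiotic metabolism 22 of 34 genes were lower, with a median of -0.029 and of 0.164 under median scaling, and Ugt2b34, a glucuronosyltransferase gene, differed by 0.47.

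For cholesterol synthesis 16 of 18 genes were higher in HH, with a median of 0.130 (0.338 under median scaling and 0.455 with the fixed block) and 0 members at an unadjusted p under 0.05. Leaving out 1 mouse gave 0.082 without HL 10B to 0.221 without HL 8. The mean of the detected members was 9.04 to 9.36 in HH and 8.78 to 9.46 in HL mice, and HL 8 was the highest of the 12. Msmo1, a sterol oxidase of the pathway, lay at 11.39, 11.56 and 12.15 in HH and at 10.47, 11.19 and 12.21 in HL mice. The groups overlapped widely, since the highest of the 12 was an HL mouse. Insig1, the sterol sensor that holds the pathway in check, lay at 8.78, 8.96 and 9.34 in HH and at 8.15, 8.76 and 8.87 in HL mice, a difference of 0.34. Dimmer detected probes of Insig1 differed by 0.12 and 0.10. Pmvk, a kinase of the mevalonate branch, differed by 0.23. Within the pairs, the list mean was higher in the HH pup by 0.577 for mother 10 and by 0.341 for mother 10B.

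Some of the largest differences belonged to genes of other tissues, and each of these rested on a few mice. Clps encodes colipase of the exocrine pancreas. It lay at 7.45, 7.53 and 8.56 in HH and at 7.24, 7.97 and 11.61 in HL mice, and the mouse HL 8C alone held the high value. Of 17 exocrine pancreas markers tested, 17 had the lower mean in HH, with a median of -0.461. However, 11 of the 17 were detected on 1 of the 12 arrays only, and this array was HL 8C for all 11. Without HL 8C the median was -0.059, with 14 of 17 lower. Ctrl, which encodes a chymotrypsin-like protease, was at 9.80 in HL 8C and at 7.16 to 7.67 on the other 11 arrays. Cela1, an elastase gene detected on all 12 arrays, differed by -0.35. Reg3a, a C-type lectin gene of the antimicrobial list, followed the same mouse, at 10.99 in HL 8C and 7.82 to 8.43 in the other HL mice, against 7.58 to 8.23 in HH mice. Its difference of -0.66 (limma, unadjusted p = 0.0811) thus came with the pancreas markers of HL 8C, whose part in it was not tested.

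Fat cell genes were lower in HH for 13 of 16 members tested, with a median of -0.081 over all 16 and of -0.419 over the 9 detected on at least 6 arrays. Adipoq, the adipocyte hormone adiponectin, lay at 7.22, 7.37 and 9.34 in HH and at 7.17, 8.51 and 9.65 in HL mice. It was above 8 in 4 HL mice and in HH 5A alone among HH mice, and its difference was -0.75 (standard error 0.561). Plin4, which encodes a lipid droplet coat protein, lay at 7.56, 7.75 and 8.43 in HH and at 7.77, 8.33 and 9.35 in HL mice, a difference of -0.61. Cidec, another lipid droplet gene, differed by -0.42 and was also highest in HL 14A and, among HH mice, in HH 5A. Of the 16 fat cell genes, 11 were detected in HH 5A and 7 or 8 in every other HH mouse. In HL mice 11 were detected in HL 14A, HL 8C and HL 8, 10 in HL 10B, 9 in HL 2A and 8 in HL 10. Dgat2 is a member of this list too. It was highest in HL 14A, at 9.41, while HH 5A was at 8.65, close to the lowest HH mouse. The part of the other fat cell genes in its difference was not tested.

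**Figure D4:**
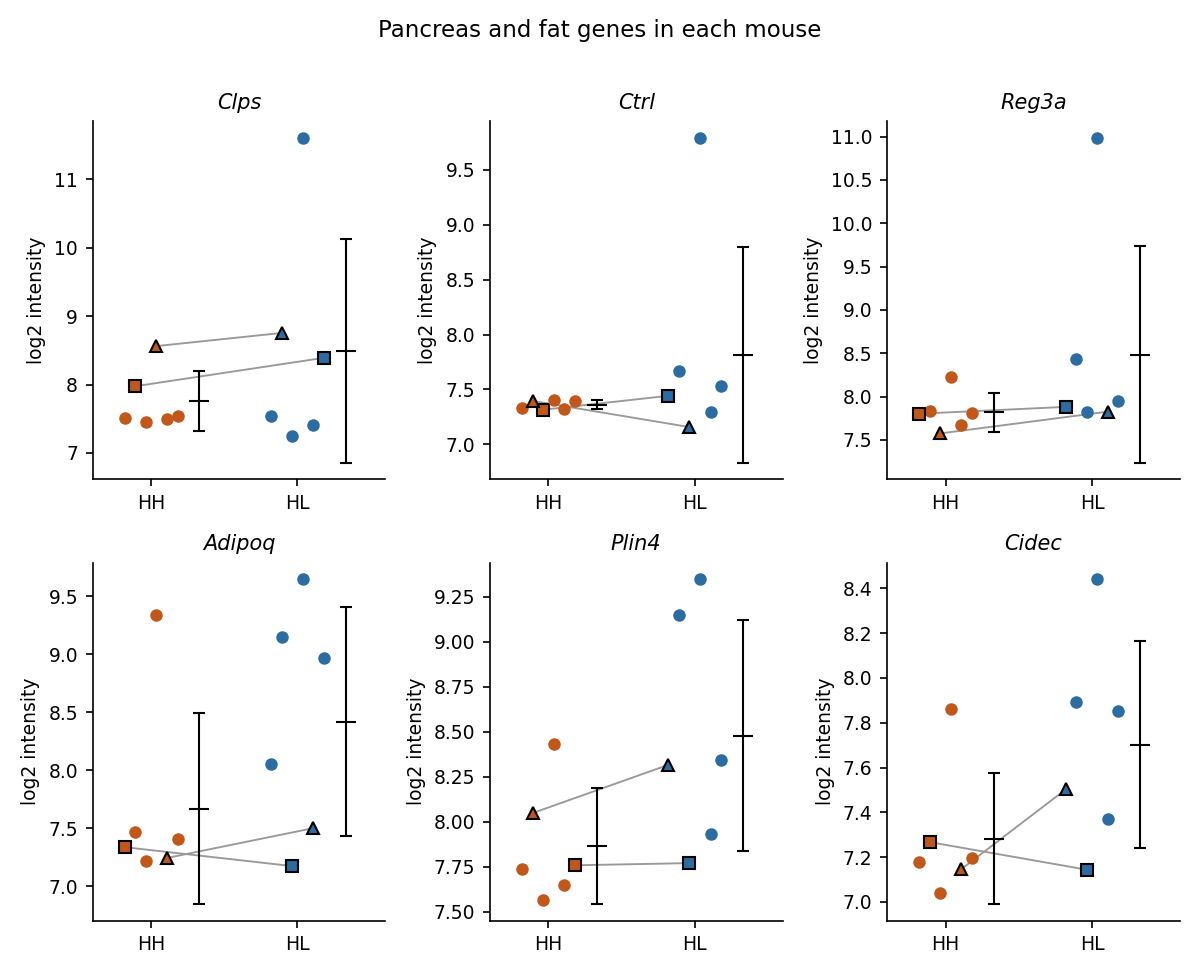
Level (log2 intensity) of 3 genes high in HL 8C (Clps, Ctrl, Reg3a) and of 3 fat cell genes (Adipoq, Plin4, Cidec) in each HH (orange) and HL (blue) mouse, with mean and SD beside the points and pups of mothers 10 (squares) and 10B (triangles) joined. A single HL mouse reaches 11.61, 9.80 and 10.99 in the upper row, and the lower row shows 1 high HH mouse, HH 5A, beside several high HL mice.

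In the stroma, 24 of 28 fibroblast and matrix genes had the higher mean in HH, with a median of 0.119 that was 0.063 without HL 2A, 0.207 without HL 10B, 0.404 under median scaling and 0.016 with the fixed block. Within the pairs, the list mean in the HH pup differed by -0.027 for mother 10 and by 0.006 for mother 10B. Col3a1, a fibrillar collagen gene, lay at 9.09, 9.15 and 9.73 in HH and at 8.27, 8.51 and 9.66 in HL mice. All HL mice but HL 2A were below every HH mouse, and the difference was 0.64 (standard error 0.293, limma, unadjusted p = 0.0411). The matrix genes Sparc and Lum differed by 0.26 and 0.31 and the podoplanin gene Pdpn by 0.23, with all 6 HH mice above the HL mean for each. Lyve1, a hyaluronan receptor gene of lymphatic vessels, differed by 0.22. Smooth muscle markers were lower in HH for 14 of 21 genes, with a median of -0.093 and of 0.183 under median scaling, and the intermediate filament gene Synm and the muscle coactivator gene Myocd differed by -0.37 and -0.22.

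Hsph1, a heat shock protein gene, had the largest difference of all detected genes, -0.91 (standard error 0.525, limma, unadjusted p = 0.0978). It lay at 9.18, 9.94 and 12.49 in HH and at 10.08, 11.38 and 12.46 in HL mice. The highest of the 12 was HH 10B, while HH 9, HH 10 and HH 11A, at 9.76, 9.18 and 9.36, were below every HL mouse. The pups of mother 10 and of mother 10B differed in opposite directions, by -2.35 and 0.68. The growth arrest gene Gadd45b was at 7.83 ± 0.17 in HH and 8.09 ± 0.23 in HL mice (SD), and the immediate early genes Jun and Zfp36 differed by -0.33 and -0.18. Of the 28 stress and immediate early genes tested 17 were lower, with a median of -0.039 and of 0.217 under median scaling. Gm12657, a predicted gene, was higher by 0.66 in HH, at 8.53 to 9.33 against 7.79 to 9.37 in HL mice.
Among clock genes, Arntl, the activator of the circadian loop, was at 8.59 ± 0.29 in HH and 8.26 ± 0.33 in HL mice (SD), a difference of 0.33. The repressor gene Nr1d1 and the output gene Dbp, which peak at the opposite time of day, differed by -0.23 and -0.52. The Nr1d1 probe was detected in 3 HH and 5 HL mice. Dbp ranged from 7.95 to 10.15 in HH and from 7.80 to 10.59 in HL mice, and its difference had a standard error of 0.469. For Dbp the HH pup differed by 0.64 for mother 10 and by -1.57 for mother 10B. Of the 15 clock genes tested 5 were higher and 10 lower, with a median of -0.101. A shift of the clock was not tested. Of the mitochondrial respiratory genes 14 of 33 were higher, with a median of -0.003 and of 0.288 under median scaling, and Sdhd, of complex II, and Cox4i1, of cytochrome c oxidase, differed by 0.40 and -0.23.

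The same diets were compared in pups of low-diet mothers, and whether the HH minus HL difference departed from LH minus LL was tested directly. With limma, 0 of 37654 probes passed the adjustment (0%), the smallest adjusted p was 1.0, and 1107 probes (2.94%) had an unadjusted p under 0.05. The confidence interval of this contrast reached 0.212 to either side in the median. The detected genes with the smallest p-values on the negative side were Dgat2, Chchd4 and Cluh, a gene of mitochondrial distribution. Dgat2 differed by -0.43 between HH and HL and by 0.07 between LH and LL, with unadjusted p = 0.00583 in limma for the contrast of both and adjusted p = 1.0. Chchd4 differed by -0.29 and 0.12 and Cluh by -0.22 and 0.30 in the same order. On the positive side Bnip2, which encodes a scaffold protein, differed by 0.11 and -0.18, the transmembrane protein gene Tmem218 by 0.14 and -0.17, and the zinc finger gene Zfp280c by 0.15 and -0.09.
By list medians, antimicrobial genes differed by 0.193 between HH and HL and by 0.072 between LH and LL, macrophage and neutrophil markers by 0.162 and 0.008, and colitis inflammation by 0.132 and 0.115. Exocrine pancreas markers were at -0.461 and -0.335 and smooth muscle markers at -0.093 and -0.227. These are descriptions, and the differences between the list medians were not tested.

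**Figure D5:**
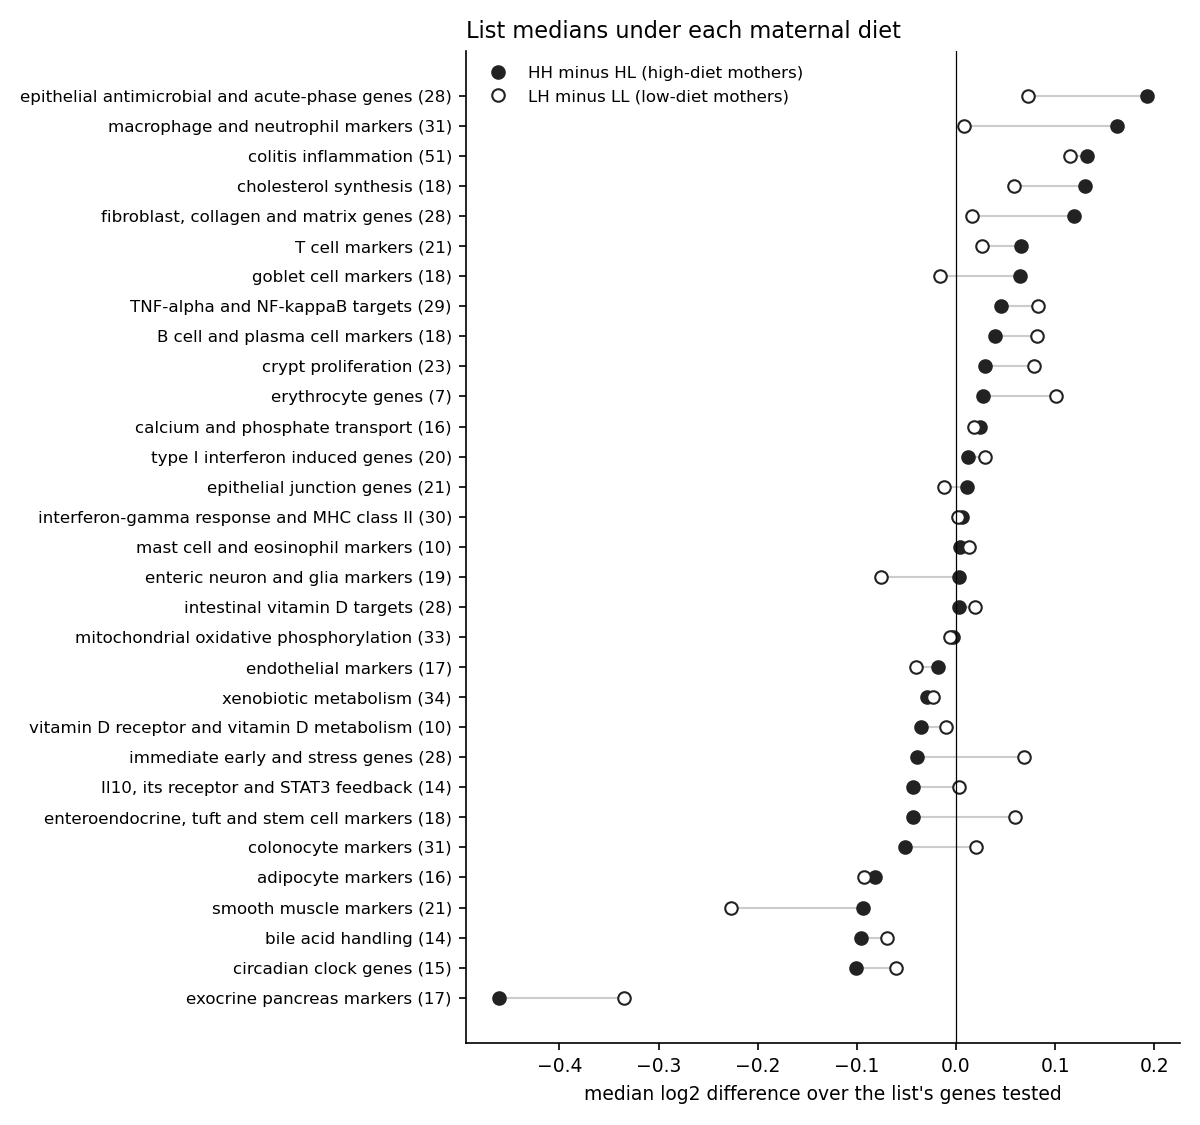
Median log2 difference (horizontal axis) over the tested genes of each of 31 lists (number of genes in parentheses) for HH minus HL (filled) and LH minus LL (open). Apart from the pancreas list at -0.461 and -0.335 all filled points lie between -0.101 and 0.193.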

How the data were processed

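RNA of 24 proximal colon samples, 1 per mouse, was hybridized to Illumina MouseWG-6 arrays of 45281 probes. The authors deposited raw signal intensities, a detection score for each probe, a fraction near 1 for probes above the negative controls, and log2 values that they had quantile normalized. Quantile normalization of the raw intensities was repeated and came within 0.000415 of these. Quantile normalization gives all arrays one distribution and so removes any difference in total signal. Expressed probes were those that exceeded the 20th percentile of an array on 80% or more of the HH or of the HL arrays. The fit used limma 3.58.1 in R 4.3.3 on all 24 arrays with 1 mean per group, and Benjamini-Hochberg adjustment over all probes tested. A gene was represented by its brightest probe, and 34885 probes had 1 gene symbol in the platform annotation, 18 several and 10378 none there. Some list members were not matched to a probe.

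Named genes were, among those detected on at least 6 of the 12 arrays, the 8 with the smallest p and the 6 with the largest difference in each direction, up to 4 members with the smallest p of each list, the 3 with the smallest p in each direction for the difference between mothers, and the vitamin D genes whatever their values. The text gives part of them. The members and lists were chosen with earlier results of these data known. The titles name the mother, and HH and HL mice of the same mother deviated together from their group means (correlation over 34415 probes 0.407 for mother 10 and 0.622 for mother 10B). The test was also run on simulated data with planted changes, drawn independently for each probe and mouse. Such data hold no resemblance between mice of the same mother, and no statement here rests on them. Mice are the replicates, and their number limits the precision.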

Additional observations from a re-analysis of the deposited data

Results flagged for a closer look

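In 202 groups of 6 values, formed by most of the named genes, the detected share and the mean intensity in HH and in HL mice, 22 had a highest or lowest mouse far from the others. Chance alone flags about 1 group in 20. The mice were HH 10B and HL 10B (4 each), HL 10, HL 2A and HL 8C (3 each), HH 5 and HH 5A (2 each) and HH 10 (1).

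HL 8C was far above the other HL mice for Clps (11.61), Ctrl (9.80) and Reg3a (10.99). HH 5A was the high HH mouse for Adipoq (9.34) and Cidec (7.86). The pups of mother 10B were each the highest of their group for Dhcr7, at 9.06 for HH 10B and 8.64 for HL 10B. HH 10B was also lowest for Cd14 (10.58) and Jun (7.87) and highest for Sparc (10.80), and HL 10B was lowest for Mpeg1 (9.91) and Cldn7 (9.25) and highest for Cdc25a (8.52).

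HL 2A was the highest HL mouse for Gm12657 (9.37), Jak1 (8.30) and Col3a1 (9.66). HL 10 was highest for Dusp8 (8.09) and Cd3e (9.64) and lowest for Insig1 (8.15), and HH 10 was lowest for Cldn23 (10.84). HH 5 was lowest for Cdc25a (7.73) and highest for Gosr2 (9.92).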

How the results depend on the processing

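The count of 0 probes at an adjusted p under 0.05 held in every setting run for HH against HL and for the difference between mothers, with smallest adjusted p-values of 0.454 to 1.0 for HH against HL. At an unadjusted p under 0.05, limma's 1180 probes became 1831 under median scaling without quantile normalization, 399 of 16143 probes with a filter on detection (67.9% of them higher in HH, against 51.7%), 1905 with the fixed mother block and 2148 with array weights. With the mother as a random replicate block it was 1363, with the 12 arrays alone 1424 and with the methods' t-test 1663 (0 after adjustment). Leaving out 1 mouse gave 874 to 1556, and leaving out both mice of mother 10B, added after seeing the data, gave 1283. The block for the chip was not run because no chip is named in the sources used here. The cause of these shifts was not tested. Dim probes, near 7.09, and the 6 mice per group limit what could be seen.

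Under median scaling 17 list medians moved by more than 1 SD between mice of the mean over the list's tested genes. This scaling brought the median of all genes from -0.004 to 0.075. They became 0.118 for the vitamin D receptor and metabolism, 0.0884 for vitamin D targets, 0.165 for calcium and phosphate transport, 0.237 for TNF and NF-kappaB targets, 0.199 for type I interferon, 0.102 for Il10 and STAT3 feedback, 0.214 for colonocytes, 0.35 for junctions, 0.238 for crypt proliferation, 0.338 for cholesterol synthesis, 0.0756 for bile acids, 0.164 for xenobiotic metabolism, 0.183 for smooth muscle, 0.404 for fibroblasts, 0.0986 for endothelium, 0.217 for stress genes and 0.288 for oxidative phosphorylation. With the fixed block they became -0.186 for B cells, 0.455 for cholesterol synthesis and -0.148 for endothelium. By neqc, 0 of the 31 list medians changed sign.

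Of 99 named genes, Csf1 not among them, 71 kept the sign of their difference in all settings. Under median scaling the difference turned to 0.055 for Klc4, 0.0181 for Chchd4, 0.127 for Tbc1d2, 0.215 for Cyp27a1, 0.33 for Vdr, 0.0757 for Trpv6, 0.183 for Cldn15, 0.169 for Foxp3, 0.062 for Bcl3, 0.209 for Stat3, 0.0135 for Slc51b, 0.164 for Cldn23, 0.149 for Cldn7, 0.026 for Cela1, 0.191 for Zfp36 and 0.0546 for Cluh. With the fixed block it was 0.152 for Trpv6, -0.00227 for S100g, -0.146 for Cldn2, -0.0227 for Csf3r, -0.239 for Cd3g, -0.346 for Cd3e, -0.212 for Cxcl13, -0.0109 for H2-Aa, 0.0599 for Stat3, 0.00969 for Slc51b, -0.00118 for Lyz1, 0.00795 for Cldn7, -0.0934 for Pdpn, 0.0555 for Ctrl and 0.53 for Cela1. Array weights gave -0.00533 for Dhcr7 and 0.0334 for Trpv6, and neqc gave -0.051 for Lrp2. Without both mice of mother 10B it was 0.0754 for Cyp27a1, 0.00204 for Vdr and -0.0473 for Dhcr7. Leaving out 1 mouse moved Cyp27a1 from -0.177 to 0.0485, Vdr from -0.154 to 0.0449, Lrp2 from -0.0331 to 0.068, Dhcr7 from -0.135 to 0.119 and Trpv6 from -0.102 to 0.1. Of 40 other detected probes of named genes, 4 had the opposite sign.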
